A study of Homo sapiens with 6 samples.

Results

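The mRNAs described here encode 8 proteins known for stretches of glutamate and aspartate, namely NCL, NPM1, UBTF, SET, ANP32A, ANP32B, PTMA and NAP1L1. Their members were the clusters of eCLIP reads that shared 1 nt or more with the GRCh37 span of 1 of these genes, on its own strand. This gave 145 of 102843 clusters in Angel1 IP replicate 1, 152 of 96960 in replicate 2 and 31 of 5717 in the FLAG-only IP, or 328 of 205520 clusters in all. No cluster of the 8 genes was filtered out for low values. In eCLIP, proteins are crosslinked to RNA by UV light, immunoprecipitated (IP) with the RNA they hold, and the RNA is sequenced beside a size-matched input taken before the IP.

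The experiment comprised 6 libraries, an IP and an input for each of 2 replicates of FLAG-Angel1 and for 1 FLAG-only control. All were labelled as HEK293 Flp-In T-REx, a human embryonic kidney line with a defined site for inducible transgenes, and all received tetracycline at 5 ng/mL over 24 h and were crosslinked with 400 mJ/cm2 of UV at 254 nm. FLAG-Angel1 was expressed from a stably integrated transgene that tetracycline induces, at a dose that the methods describe as giving near-endogenous levels, and the endogenous Angel1 gene was not described as removed. The labels give the control samples the FLAG-Angel1 genotype as well, whereas the methods describe a line without a FLAG fusion protein, and the cluster lists do not settle which applies. A sample without UV is mentioned in the methods, but no label marks one. The labels do not state whether the replicates came from separate cultures, and with 1 control library and 2 replicates no test between conditions was made, so what follows describes these libraries.

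Acidic runs are typical of nuclear proteins that handle histones or work in the nucleolus, where negative charge helps them bind basic partners. Ribosomes can slow while they make runs of charged residues, and the study asked whether Angel1, a relative of the CCR4 deadenylase, crosslinked near codons for peptides associated with stalled ribosomes. The positions of exons, of coding regions and of the acidic codons within these genes were not analysed here, nor were the protein sequences, since no annotation or sequence of the files' build was used.

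For each cluster the deposited lists give a log2 fold of IP over input and a P, and a cluster is called enriched below when P was under 0.05 with a log2 fold above 0. The numbers of reads behind a cluster were recovered from these values as whole numbers for 307 of the 328 clusters, 18 clusters with a P of 1 being among those that could not be resolved. Over whole libraries reads were recovered for 44.8% of clusters in Angel1 replicate 1, where most clusters had a P of 1, for 94.8% in replicate 2 and for 96.2% in the FLAG-only IP, and those clusters had a median of 28, 8 and 4 IP reads. The same steps placed the IP at 4.704 times the size of its input in replicate 1, at 0.9045 times in replicate 2 and at 0.06457 times in the FLAG-only control, whose IP held an inferred 206000 reads against 3356000 and 2537000 in the Angel1 IPs. An input value of 1 may be a minimum set by the pipeline. Intervals given below for log2 folds are exact 95% binomial intervals, and those for shares of clusters are Wilson 95% intervals. Both cover counting error only, and reads that span abutting clusters can be counted in each of these clusters.

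Over the 8 genes together, most clusters were enriched in both Angel1 IPs, while ANP32A had the lowest share in each and UBTF (9 of 20) and ANP32B (3 of 6) had no majority in replicate 1. In replicate 1, 89 of 145 clusters (61.4%, Wilson 95% interval 53.3 to 68.9) were enriched, against 11.7% of all clusters of that library. In replicate 2, 136 of 152 (89.5%, 83.6 to 93.4) were enriched, against 40.7% of all clusters. Without ANP32A the shares were 69.3% and 95.5%. These intervals treat clusters as independent, which abutting clusters of 1 library are not.

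At the threshold of 0.001, 49 clusters (33.8%) of the 8 genes passed in replicate 1, where 4.22% of all clusters passed, and 123 (80.9%) in replicate 2, where 17% of all clusters passed. The median log2 fold in the 8 genes was 1.19 (quartiles 0.80 and 1.83) in replicate 1 and 2.68 (2.07 and 3.25) in replicate 2, while the medians over all clusters were 0.57 and 1.73. Where reads were recovered, clusters in these mRNAs also held more of them than those of the whole library, with a median of 118 IP reads in replicate 1 and 48.5 in replicate 2, and a cluster with more reads can pass a threshold at a smaller fold.

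With clusters restricted to those with at least 5 recovered input reads, 74 of 105 (70.5%) in the 8 genes were enriched in replicate 1, against 50.9% of all such clusters. There the median log2 fold was 1.19 in the 8 genes and 1.14 in all clusters, values that lay close together. In replicate 2, 115 of 116 (99.1%) were enriched, against 70.1% of all such clusters, and the medians stayed apart at 2.80 and 1.73. This restriction was chosen after the values had been seen. It also left out every cluster whose reads were not recovered, among them those with a log2 fold of 0 or below. In replicate 1 reads were recovered for 131 of 145 clusters in the 8 genes but for 44.8% of all clusters. In replicate 2 this was 146 of 152 and 94.8%. The restricted shares and medians thus depend in part on the folds themselves and are not a comparison at matched depth alone.

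**Figure D1:**
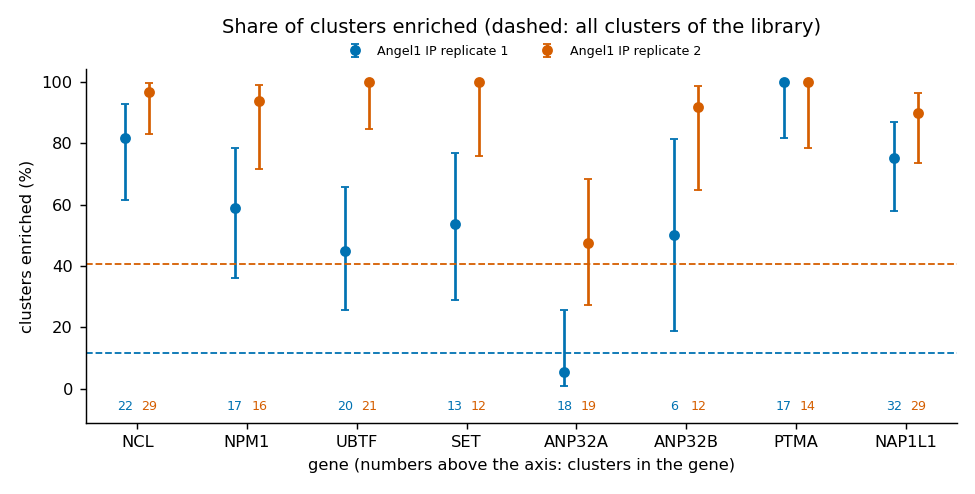
Share of clusters called enriched (%) in each gene for Angel1 IP replicates 1 and 2, with Wilson 95% intervals, the number of clusters above the axis, and dashed lines at the share over all clusters of each library (11.7% and 40.7%). Except for ANP32A at 5.56% in replicate 1, the share of each gene lay above the line of its library.

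The nucleolar proteins come first. NCL encodes nucleolin, which acts in the transcription and processing of ribosomal RNA. Of its clusters, 18 of 22 were enriched in replicate 1, with log2 folds from 0.47 over a median of 1.30 to 2.85. In replicate 2, 28 of 29 were enriched, with log2 folds from -1.36 over a median of 3.26 to 3.95. This was the highest median of the 8 genes in replicate 2, whereas 3 genes stood above NCL in replicate 1.

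NCL held 7 reproducible peaks, that is, regions where a cluster of each replicate passed the threshold of 0.001 and the 2 clusters shared 1 nt or more. A fold given for such a peak is that of its highest cluster. The NCL peak with the largest lower fold of the replicates was chr2:232327911-232328027 (minus strand), 1178 nt from the 5′ end of the gene, at a log2 fold of 2.85 (1.60 to 4.49, 170 IP and 5 input reads) in replicate 1 and 3.66 (2.98 to 4.42, 217 and 19 reads) in replicate 2. In replicate 1 the 2.85 came from a cluster of 2 nt, while the abutting cluster of 84 nt was at 2.30 (1.43 to 3.32, 254 and 11 reads). At this peak the intervals of the replicates overlapped. They did not at chr2:232326286-232326496, where the log2 fold was 0.84 (0.40 to 1.32) on 388 IP and 46 input reads in replicate 1 and 3.39 (2.90 to 3.92) on 352 and 37 reads in replicate 2. Both NCL peaks lay over an enriched FLAG-only cluster. These had log2 folds of 1.23 (-0.06 to 2.31) on 8 IP reads and 1.99 (0.88 to 2.97) on 11. At the second peak the FLAG-only fold was above that of replicate 1, with intervals that overlapped.

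NPM1 encodes nucleophosmin, a histone chaperone of the nucleolus that also takes part in ribosome assembly. Here the replicates differed in what passed the stricter threshold. In replicate 1, 10 of 17 clusters were enriched and 0 passed the threshold of 0.001, with log2 folds from 0.40 over a median of 0.94 to 2.94 and a highest −log10 P of 2.09. In replicate 2, 15 of 16 clusters were enriched and all 15 passed 0.001, with log2 folds from 0.34 over 2.93 to 4.10. NPM1 therefore had no reproducible peak.

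The highest NPM1 cluster of replicate 1, at chr5:170834725-170834772 (plus strand), had a log2 fold of 2.94 on 36 IP reads and an input value of 1. The highest of replicate 2, at chr5:170827167-170827214, had a log2 fold of 4.10 on 93 IP and 6 input reads. Both replicates had a cluster in that second place, where replicate 1 reached 1.33 on 83 IP and 7 input reads at chr5:170827168-170827214.

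UBTF encodes a transcription factor of RNA polymerase I with an acidic tail. Its clusters held fewer reads than those of most of the 8 genes, with a median of 39 IP and 4 input reads in replicate 1 and of 24 and 4 in replicate 2. In replicate 1, 9 of 20 clusters were enriched (log2 folds from 0.21 over 1.39 to 3.16), and in replicate 2 all 21 were (1.73 over 2.73 to 3.93). A single reproducible peak was found, chr17:42284559-42284736 (minus strand), at 1.54 (0.70 to 2.52) in replicate 1 and 3.14 (1.80 to 4.84) in replicate 2, intervals that overlapped. This peak lay over an enriched FLAG-only cluster of 3 IP and 5 input reads. The FLAG-only log2 fold of 3.22 (0.53 to 5.58) was above the folds of both Angel1 replicates.

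The histone chaperones and related acidic proteins include SET, an inhibitor of histone acetylation and of protein phosphatase 2A. By median log2 fold, SET differed least between the replicates. Its clusters were enriched in 7 of 13 cases in replicate 1, with log2 folds from 0.02 over a median of 1.10 to 2.35. All 12 were enriched in replicate 2, at 1.17 over 1.93 to 2.65. Over the 3 IPs, the cluster nearest the 5′ end of the SET span began 5569 nt into it. Its reproducible peak, chr9:131451503-131451791 (plus strand), had log2 folds of 1.47 (0.98 to 1.99) and 1.79 (1.37 to 2.22) on 481 and 197 IP reads. This peak overlapped an enriched FLAG-only cluster of 8 IP reads. The FLAG-only log2 fold of 1.49 (0.20 to 2.60) lay between those of the Angel1 replicates.

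ANP32A and ANP32B encode related leucine-rich repeat proteins with acidic tails, and they stood at different places in the set. For ANP32A, 1 of 18 clusters was enriched in replicate 1 (5.56%, 0.988 to 25.8), with log2 folds from -2.04 over a median of -0.05 to 1.77, and 10 of the 18 were at or below 0. In replicate 2, 9 of 19 were enriched (47.4%, 27.3 to 68.3), from -0.66 over 1.92 to 3.67. Both shares had intervals that contained the share over all clusters of the library, and ANP32A had the lowest median of the 8 genes in each replicate. Its highest cluster in replicate 1 was chr15:69076802-69076903 (minus strand), at 1.77 on 48 IP and 3 input reads, and in replicate 2 chr15:69079789-69079873, at 3.67 on 23 IP and 2 input reads.

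ANP32B had fewer clusters, of which 3 of 6 were enriched in replicate 1, with log2 folds of 0.11, 0.24, 0.45, 1.78, 2.29 and 2.48. In replicate 2, 11 of 12 were enriched, with log2 folds from 1.69 over 2.63 to 3.35. The enriched clusters of replicate 1 began 18, 96 and 109 nt from the 5′ end, while 7 clusters of replicate 2 began 21713 nt or more from it, where replicate 1 had 0. The leading reproducible peak began 18 nt from the 5′ end, at chr9:100745661-100745738 (plus strand), with log2 folds of 2.48 (1.84 to 3.21, 526 IP and 20 input reads) and 1.96 (1.31 to 2.66, 88 and 25 reads). The second directly abutted it, and neither lay over a FLAG-only cluster.

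**Figure D2:**
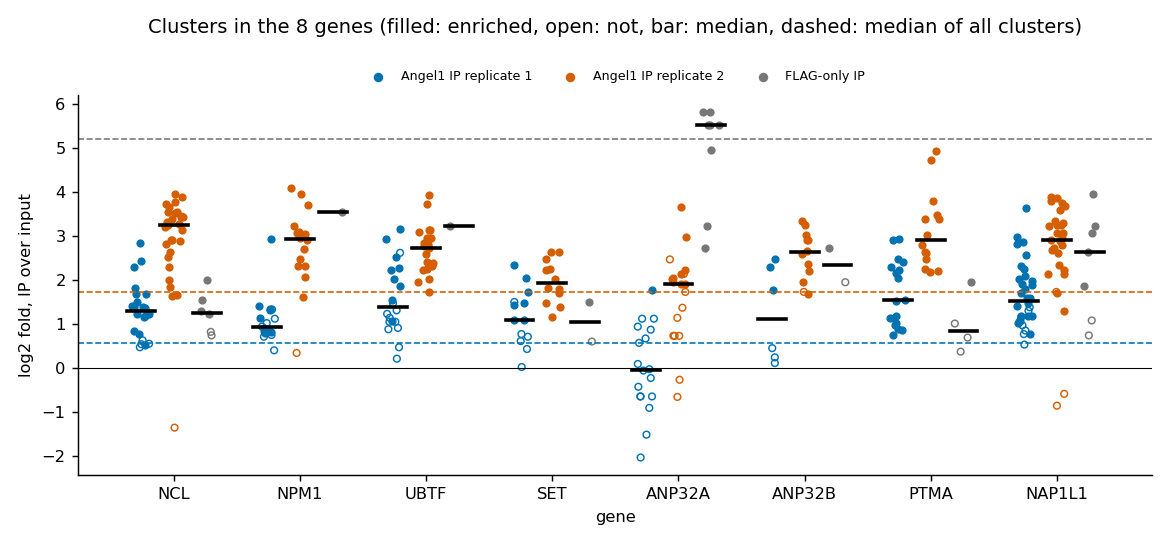
Log2 fold of IP over input of every cluster in the 8 genes (points, filled where enriched), by library, with the median of each gene as a black bar and the median over all clusters of each library as a dashed line (0.57, 1.73 and 5.20). Points of replicate 2 lie above those of replicate 1 in each gene by median, and ANP32A is the gene whose FLAG-only clusters lie highest.

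PTMA encodes prothymosin alpha, a small and highly acidic nuclear protein that binds histone H1. In both replicates each of its clusters was enriched, 17 in replicate 1 and 14 in replicate 2, with log2 folds of 0.75 over a median of 1.55 to 2.93 and of 2.18 over 2.91 to 4.94. PTMA held the most significant clusters of the set in each Angel1 IP, with a highest −log10 P of 67.6 in replicate 1 and of 400, the largest value in the lists, in replicate 2. The threshold of 0.001 was passed by 16 of the 17 and by all 14.

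The replicates placed the strongest PTMA signal at opposite ends of the gene. At its 5′ end, chr2:232573234-232573355 (plus strand), replicate 1 reached a log2 fold of 2.93 (2.54 to 3.36) on 1904 IP and 53 input reads, while replicate 2 reached 2.18 (1.88 to 2.50) on 456 and 111 reads. At chr2:232577514-232577566, 4279 nt into the gene, replicate 1 had 1.53 (0.80 to 2.37) on 218 IP and 16 input reads, while replicate 2 had 4.94 (4.15 to 5.87) on 362 and 13 reads. The intervals were apart at both places, in opposite directions. Of 7 reproducible peaks, the leading one, chr2:232576058-232576129, lay between these ends, with log2 folds of 2.49 (1.78 to 3.31) and 3.49 (2.69 to 4.39), and overlapped no FLAG-only cluster. The clusters with these 2 folds did not overlap each other. Where replicate 1 had 2.49, replicate 2 had 2.63 (2.23 to 3.06), and where replicate 2 had 3.49, replicate 1 had 2.42 (1.52 to 3.50).

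**Figure D3:**
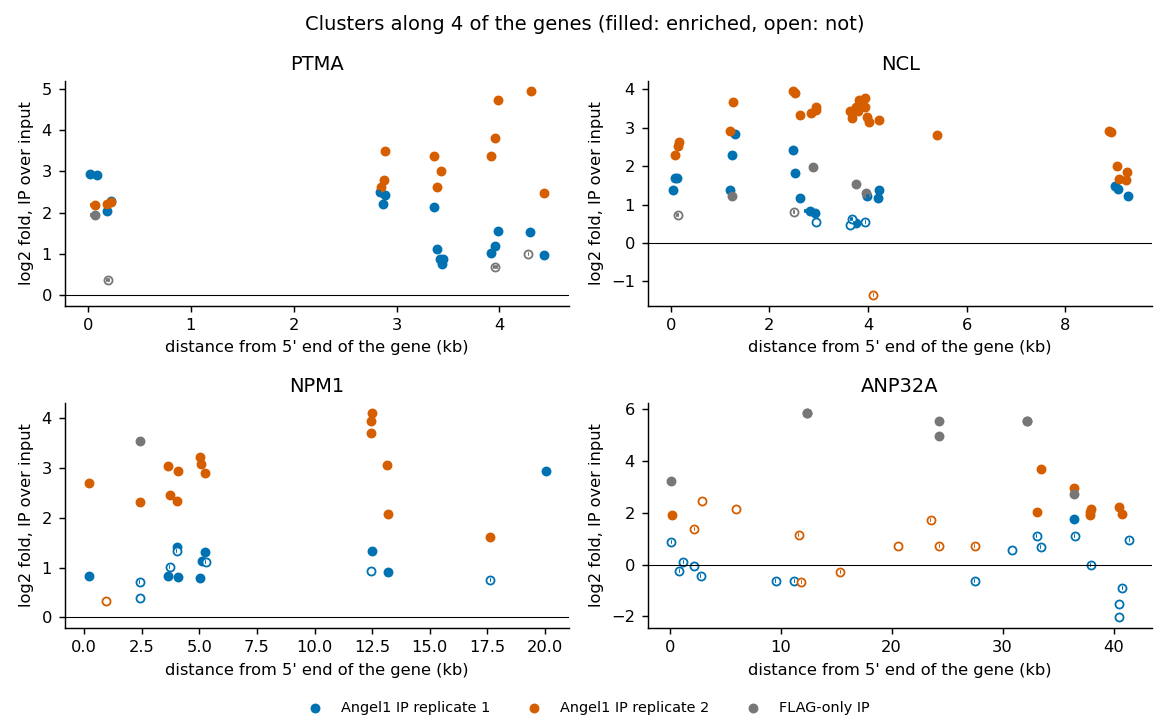
Log2 fold of IP over input of each cluster (filled where enriched, with its width as a short line) against its distance from the 5′ end of the gene in kb, for PTMA, NCL, NPM1 and ANP32A. In PTMA replicate 1 is at 2.93 at the 5′ end and at 1.53 at 4279 nt, where replicate 2 is at 2.18 and 4.94, and in ANP32A the highest points are FLAG-only clusters.

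NAP1L1 encodes a chaperone of histones H2A and H2B and had the most clusters of the set. In replicate 1, 24 of 32 were enriched, with log2 folds from 0.53 over 1.53 to 3.64, and in replicate 2, 26 of 29 were, from -0.86 over 2.91 to 3.90. Among its 7 reproducible peaks was the one with the largest lower fold of the set, chr12:76446985-76447007 (minus strand), at 3.64 (1.75 to 6.70) on 117 IP and 2 input reads in replicate 1 and 3.79 (2.34 to 5.72) on 50 and 4 reads in replicate 2. It overlapped no FLAG-only cluster. In replicate 1 the 3.64 came from a cluster of 4 nt, while the abutting cluster of 19 nt was at 2.58 (141 IP and 5 input reads). By its highest clusters, this was the one peak of the 8 genes whose log2 fold was 3 or more in both replicates.

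In all, 25 reproducible peaks lay in 6 of the 8 genes, with 0 in NPM1 and ANP32A. Of the member clusters, 47 (32.4%) in replicate 1 and 48 (31.6%) in replicate 2 belonged to such a peak, against 3.2% and 3.54% of all clusters. Reproducible peaks need reads in both libraries, and the larger number of reads in these genes stands beside this count. Of the 25 peaks, 8 (32%) lay over an enriched FLAG-only cluster, against 17.2% of the 2243 peaks of the whole series.

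Folds in these genes were mostly higher in replicate 2. Clusters of replicate 1 were paired with the cluster of replicate 2 that they overlapped most, which gave 128 pairs in the 8 genes. The fold was higher in replicate 2 in 115 of them (89.8%), with a median difference of 1.49 (SD 1.04), and over all 54100 pairs of the series it was higher in 81.3%, with a median difference of 1.10 (SD 1.25). Where reads were recovered in both, the counting intervals were apart with replicate 2 higher in 29 of 119 pairs (24.4%), against 2.21% of all pairs, and with replicate 1 higher in 2 pairs (1.68%), against 0.251%. Intervals narrow with the number of reads, of which these genes held more. These 29 pairs were in NCL (12), NPM1 (6), PTMA (6), ANP32B (3) and NAP1L1 (2), and both of the opposite kind were at the 5′ end of PTMA. Across pairs the folds of the replicates had a Pearson r of 0.207 and a Spearman rho of 0.124 in the 8 genes, and of 0.224 and 0.178 over all pairs, as a description of points that share libraries, reads and, in part, the same cluster of replicate 2.

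**Figure D4:**
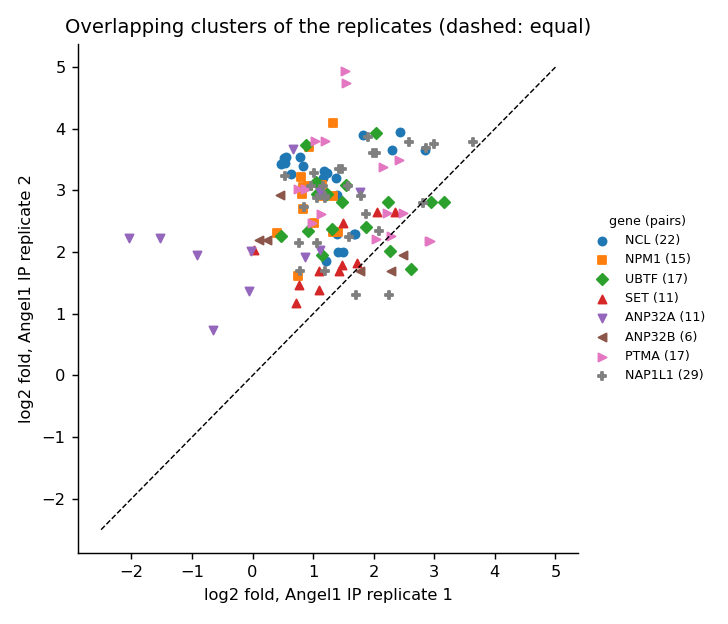
Log2 fold of overlapping clusters in Angel1 IP replicate 1 (x axis) and replicate 2 (y axis), 1 point per pair, by gene, with the number of pairs of each gene in the legend and a dashed line where both are equal. Of the 128 points, 115 lie above the line, and the highest are PTMA pairs.

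The order of the genes by median log2 fold changed with the replicate. In replicate 1 it was PTMA (1.55), NAP1L1 (1.53), UBTF (1.39), NCL (1.30), ANP32B (1.12), SET (1.10), NPM1 (0.94) and ANP32A (-0.05). In replicate 2 it was NCL (3.26), NPM1 (2.93), PTMA and NAP1L1 (both 2.91), UBTF (2.73), ANP32B (2.63), SET (1.93) and ANP32A (1.92). Apart from the steps to ANP32A in replicate 1 and from ANP32B to SET in replicate 2, neighbours in these orders differed by less than the range between the quartiles of clusters within either gene, and NPM1 stood near the bottom of the one order and near the top of the other.

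Along most of the genes, the pair nearest the 5′ end was raised less in replicate 2 than the other pairs were. Its difference between the replicates was below the median of the further pairs in 6 of the 8 genes, SET and UBTF being the exceptions. In PTMA it was -0.75 against a median of 1.50 over 16 further pairs, in ANP32B -0.52 against 1.96 over 5, in NAP1L1 -0.41 against 1.43 over 28 and in NCL 0.90 against 2.05 over 21. In NPM1 the first pair, at 1.86, was within the range of the others (0.88 to 2.77). This pattern was noticed in the values, and of the first pairs only that of PTMA lay below all further pairs of its gene. There the lowest further pair was at -0.74, next to the first and paired with the same replicate 2 cluster.

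The FLAG-only IP gave 31 clusters in the 8 genes, of which 22 (71%, 53.4 to 83.9) were enriched, against 91.8% of all clusters of that library. At the threshold of 0.001 there were 11 (35.5%), against 64.5%. They rested on 3 to 18 IP reads where these were recovered, so that a weakly covered Angel1 cluster may not have been detectable at this depth. The highest-fold cluster of each leading peak without a FLAG-only cluster was scaled to the FLAG-only IP by its share of the inferred reads. From replicates 1 and 2 it would have held 32.3 and 7.15 reads for ANP32B, 26 and 11.5 for PTMA and 7.18 and 4.06 for NAP1L1. Some peaks held a cluster with more reads, so these values understate them. For PTMA in replicate 2 this was 331 IP reads against 142, and for NAP1L1 in replicate 1 it was 141 against 117. Of the 31, 21 (67.7%) overlapped an enriched cluster of at least 1 Angel1 replicate, against 31% of all FLAG-only clusters, and 17 (54.8%) one of both, against 16.5%.

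ANP32A had the most FLAG-only clusters of the 8 genes. All 8 were enriched and 7 passed the threshold of 0.001, with log2 folds from 2.73 over a median of 5.54 to 5.83, on 3 to 11 IP reads, values near those of the whole library, whose median log2 fold was 5.20. Of these clusters, 4 (50%) overlapped any Angel1 cluster, against 48.1% of all FLAG-only clusters. The highest, at chr15:69100900-69100938 and abutting another of the same fold, had 11 IP and 3 input reads and no Angel1 cluster over it. In PTMA, 1 of 4 FLAG-only clusters was enriched, at the 5′ end (log2 fold 1.95, 18 IP and 72 input reads), where Angel1 replicates 1 and 2 had 2.93 and 2.18. In NCL 4 of 6 were, with a highest log2 fold of 1.99.

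Clusters on the opposite strand were rare. Replicate 2 had 1 cluster each opposite ANP32A and UBTF, neither enriched, and the other IPs had none within the 8 spans. RefSeq annotation of GRCh38, used here for names only, lists small nucleolar RNA genes within NCL (SNORA75, SNORD20 and SNORD82) and 50, 19 and 15 pseudogenes named after NPM1, SET and PTMA, with 1 to 3 for each of the other genes but UBTF, which has 0. How reads matching both a gene and its pseudogenes were assigned is not given in the sources used here, so these folds are uncertain to that extent.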

How the data were processed

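The 3 IP cluster lists were analysed. Per the methods and the submitters' processing notes, the authors mapped reads to GRCh37 (cutadapt, STAR, SAMtools and UMI-tools are named without versions), called clusters per IP using the Yeo laboratory's eCLIP pipeline and set each cluster against its matched input. The authors deposited for each cluster a log2 fold (IP against input) and a −log10 P, which is at most 400. The −log10 P is 0 where the log2 fold was 0 or below, and also for some clusters with a log2 fold above 0. Coordinates are counted from 1.

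From these, clusters in the 8 gene spans were counted at thresholds of 0.05 and 0.001, and overlaps were of at least 1 nt on the same strand. IP and input reads were recovered as the whole numbers whose ratio (tolerance 1e-09) and −log10 P returned both deposited values. The tolerance on −log10 P was 0.01, or 0.01 of its value where that was above 1. P was taken from Fisher's exact test where an observed or expected number was under 5 and otherwise from Yates' chi-square. Within each library, 98.9% to 99.6% of clusters with a P below 1 were resolved. Recovery and overlap steps were tested on simulated lists. Python 3.11.15, numpy 2.4.6, pandas 2.3.3 and scipy 1.17.1 were used. All 8 genes were named, and within each the reproducible peak with the largest lower fold of the replicates, or otherwise the highest enriched cluster of each replicate, was singled out; further peaks were chosen after their values were seen. The genes and lists were chosen with earlier results of these data known. The closing section gives the alternative thresholds, overlaps and joins.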

Additional observations from a re-analysis of the deposited data

How the results depend on the processing

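Counts depended on the threshold and on how clusters were joined, and medians did not move by more than the SD between genes. Of 89 enriched clusters in Angel1 replicate 1, 49 passed the threshold of 0.001, 2 had a log2 fold of at least 3, and 49 regions were left after abutting clusters were joined. In replicate 2, 53 of 136 had a log2 fold of at least 3, and joining left 83. In the FLAG-only IP, 11 of 22 passed 0.001, 12 had a log2 fold of at least 3 and 14 had at least 5 input reads, an alternative added after seeing the data. The 25 reproducible peaks became 50 at a threshold of 0.05 in both replicates and 1 at a log2 fold of at least 3, and clusters past 0.001 in 1 replicate alone, with abutting ones joined, gave 24 to 73 regions. With a reciprocal overlap of 50% there were 27 and without those over an enriched FLAG-only cluster 17. By gene, 0.001 left 0 enriched clusters in NPM1 and ANP32A, 3 in SET, 2 in UBTF and 12 in NAP1L1 in replicate 1, and 12 in UBTF in replicate 2. Ignoring strand changed no count of enriched clusters or reproducible peaks. No paired analysis was possible because the control and Angel1 groups share a single replicate number, the control having 1 library. The depth of the FLAG-only IP and of the replicate 1 input limits which clusters could pass.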
